A study of Homo sapiens with 2 samples.

Results

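The peaks described here are the RRN3 PAR-CLIP peaks that lie in 5′ untranslated regions (5′ UTRs), the stretch of an mRNA between its start and its main start codon. A peak was taken when its midpoint lay in no coding sequence (CDS) of any GENCODE release 44 transcript on GRCh38 and in an exon part upstream of the CDS of a protein-coding gene, on either strand. Of 7793 peaks in the list, 224 (2.87%, 95% Wilson interval 2.53–3.27%) met this rule. They lay in the 5′ UTRs of 120 genes, on the 19 chromosomes that have any peak in the list, which holds none on chromosomes 7, 8, 9, X and Y.

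The cells were SK-OV-3, an established human ovarian cancer line, stably expressing N-terminally V5-tagged RRN3 from a lentiviral vector with an EF1α promoter. They were grown with 100 μM 4-thiouridine for 14 h, crosslinked with 365-nm light at 0.2 J/cm2 and lysed, and the lysate was digested with RNase A. There was 1 input library and 1 anti-V5 immunoprecipitate library from that lysate, and the deposited file holds 1 joint list of peaks with no separate value for either library. No value has a replicate check, and marker genes of the cell line cannot be examined in a list of peaks. Intervals cover only the number of items counted, such as peaks, sites or genes. Those over peaks count touching peaks separately, although such peaks are not independent. Every peak has a listed false discovery rate of 1, also where p is listed as 0, and a score of 1, and how these values go with the p-values is not stated. Sites were therefore ordered by the p-value the authors listed, used as a rank only.

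RRN3 is the initiation factor that brings RNA polymerase I to the ribosomal RNA gene promoters. The 5′ UTR is where the small ribosomal subunit loads and scans toward the start codon, and upstream open reading frames there can draw ribosomes away from the main one. Messages for ribosomal proteins and elongation factors begin with a C followed by a run of pyrimidines, the terminal oligopyrimidine (TOP) tract, through which their translation follows nutrient supply. Some 5′ UTR sequence is also the source of small RNAs, since microRNA hairpins and small nucleolar RNAs are cut from the exons and introns of host transcripts.

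Peaks of the same strand that touch were joined into 131 sites. Of these, 102 lay on the strand of the gene and outside small RNA genes, 16 lay within a microRNA, small nuclear, small nucleolar or transfer RNA gene, and 13 lay on the opposite strand only. The strand of the peak matched that of the 5′ UTR for 201 of the 224 peaks (89.7%, interval 85.1–93.1%). These 3 classes are described in turn, after the sequences on which the patterns below rest.

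The first set is shown because sites within microRNA genes coincided with the mature microRNA rather than with the surrounding hairpin or exon. The mature sequences are from RefSeq (GRCh38.p14), 5′ to 3′, with the seed (bases 2 to 8) in capitals.
hsa-miR-423-5p: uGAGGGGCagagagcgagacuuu
hsa-miR-423-3p: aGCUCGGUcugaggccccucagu
hsa-miR-484: uCAGGCUCaguccccucccgau
hsa-miR-1307-3p: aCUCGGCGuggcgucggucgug
hsa-miR-1307-5p: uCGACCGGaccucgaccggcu
hsa-miR-330-5p: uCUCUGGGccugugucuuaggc
hsa-miR-4787-3p: gAUGCGCCgcccacugccccgcgc
hsa-miR-7706: uGAAGCGCcugugcucugccgaga
hsa-miR-1908-5p: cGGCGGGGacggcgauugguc
hsa-miR-3615: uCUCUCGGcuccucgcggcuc
hsa-miR-8072: gGCGGCGGggagguaggcag
These 11 microRNAs have 11 different seeds, so none of them forms a seed family with another.

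The second set is shown because 5 genes shown here had a site that stopped within 1 base of the end of exon 1 and a peak that began within 1 base of the start of exon 2. Each line gives the last 20 bases of exon 1 and the first 10 of exon 2 from GRCh38, in the sense of the mRNA, with the main start codon in capitals. RPLP0 has its start codon farther downstream.
RPS18: ccgcttgtgctgcagccATGtctctagtga
RPL19: gctgcggccgcagccATGagtatgctcagg
RPS19: ggcagcgcggaggccgcacgATGcctggag
SERF2: cgctgccgtcgccATGacccgcggtaacca
RPLP0: gccaggcgtcctcgtggaagtgacatcgtc

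The third set is shown because the sites in exon 1 of ribosomal protein genes held a run of pyrimidines at or near their 5′ end, which in RPL19 follows 3 other bases. Each line gives up to the first 30 bases of the site, with its longest run of C and T in capitals. The last line is the whole site at the start of EEF1A1, where the capitals mark the pyrimidines with which the MANE Select transcript begins.
RPS18: CTCTTCCacaggaggcctacacgccgccgc
RPS19: CCCTTTCCCCTggctggcagcgcggaggcc
RPL19: gagCTCTTTCCTTTCgctgctgcggccgca
RPLP0: TCTCTCgccaggcgtcctcgtggaag
EEF1A1: cgtgaacgttCTTTTTCgcaacg

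Sites within small RNA genes had lower p-values than the other classes on the median. The median of the lowest p per site was 2.43e-84 in small RNA genes, 1.96e-36 in gene-strand sites and 3.72e-29 in opposite-strand sites. Of the 10 sites with the lowest p, 5 lay in small RNA genes, and p was listed as 0 for 4 small RNA sites and 4 gene-strand sites. Of the 47 peaks in small RNA genes, 11 (23.4%) were among the 779 peaks with the lowest p of the whole list, against 5 of 157 gene-strand peaks (3.18%) and 0 of 20 opposite-strand peaks. The share was 10.0% for the whole list by construction, 9.34% for 3′ UTR peaks and 6.18% for intron peaks. For CDS peaks it was 28.4%, and 5.47% without POLQ and SUMO3, 2 genes with very many CDS peaks. No test was made across peaks, which share their libraries.

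**Figure D1:**
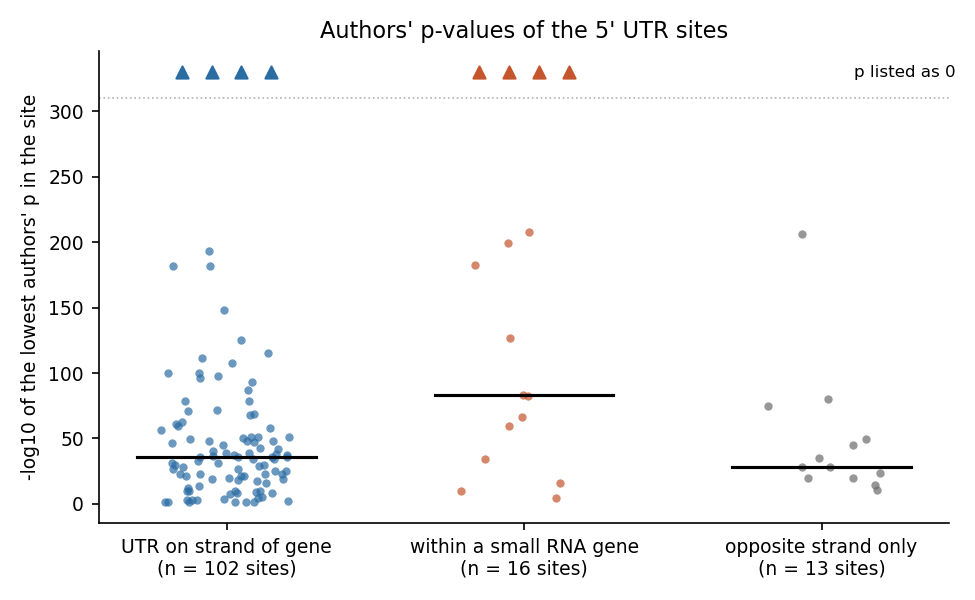
Each point is 1 site, placed by −log10 of the lowest p-value the authors listed for its peaks, and the black bar is the class median. Triangles above the dotted line are sites with p listed as 0, 4 in each of the first 2 classes and 0 among the 13 opposite-strand sites.

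In all, 11 sites with 28 peaks lay on mature microRNAs of 9 microRNA genes. MicroRNAs are about as long as these sites, and guide Argonaute proteins to target mRNAs. The 5′ end of the site was the annotated 5′ end of the mature microRNA in 9 of 11 cases, and it lay 2 bases inside for miR-423-3p and miR-8072. The 3′ ends matched exactly in 4 cases and otherwise lay within 3 bases. The list does not state whether its starts count from 0 or 1, and this match was part of the reason to read them from 0, so exact agreement is not independent of that reading. With starts read from 1, the 5′ ends would be equal in 4 of 11 cases, since sites on the plus strand would begin 1 base earlier. The site at chr16:15643301-15643322 in a 5′ UTR of NDE1, a dynein regulator, was miR-484 base for base, with p listed as 0. The sites at chr3:50675130-50675153 (DOCK3) and chr15:85380639-85380662 (AKAP13) were miR-4787-3p and miR-7706 base for base, with p of 4.85e-84 and 5.51e-83.

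Both arms of a hairpin carried a site in 2 host genes. In NSRP1, which encodes a splicing regulator, the site at chr17:30117095-30117118 matched miR-423-5p with 1 further base at its 3′ end, and the site at chr17:30117133-30117153 matched miR-423-3p. Both had p listed as 0. In ATP5MK, a small subunit of the mitochondrial ATP synthase, the sites at chr10:103394304-103394322 and chr10:103394344-103394361 matched miR-1307-3p and miR-1307-5p, each ending 3 bases before the mature 3′ end. Their p-values were listed as 0 and as 2.60e-183. The remaining microRNA sites were miR-1908-5p in FADS1, a fatty acid desaturase, with a p of 5.13e-67, miR-3615 in NHERF1 with 4.88e-60, miR-330-5p in EML2 with 1.80e-200 and miR-8072 in SBNO1 with 6.60e-11.

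These peaks are counted as 5′ UTR peaks because an annotated mRNA also covers the hairpin. In the MANE Select transcript, the single transcript chosen per gene by Ensembl and RefSeq, 4 of the 11 sites lay in the 5′ UTR. The other 7 lay in an intron of that transcript or upstream of it. Whether the fragments came from the mRNA or from the microRNA is not recorded in the list. Their source was not tested.

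The other 5 small RNA sites lay on longer RNAs. The site with most peaks, 8, covered 49 of the 191 bases of RNU2-2P, a U2 small nuclear RNA gene, at chr11:62841621-62841669, where a 5′ UTR of WDR74 also lies. Its lowest p was 2.14e-208. Its central 20 bases occur 3 times in the genome, so its reads may belong to another copy. In HSPA8, the constitutive HSP70 chaperone, 1 site covered all 87 bases of SNORD14D with a p of 1.71e-16, and another covered 22 of the 88 bases of SNORD14C with 7.63e-128. Small nucleolar RNAs of this type guide methylation of ribosomal RNA. The site in RPL23A at chr17:28720551-28720615 covered 65 of the 67 bases of SNORD42B with a p of 1.92e-05. The last lay in the transfer RNA gene TRM-CAT6-1, opposite a 5′ UTR of MAP1LC3B, an autophagosome marker, with a p of 5.16e-35. The strand of that gene is not in the table used.

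Gene-strand sites were short and mostly lay in first exons. Site lengths over all 131 sites ran from 5 to 102 bases, with a median of 17. Of the 102 gene-strand sites, 88 (86.3%, interval 78.3–91.6%) lay in exon 1, 13 in exon 2 and 1 in exon 3 of the transcript chosen for them. On average 76.0% of the bases of their 5′ UTRs were in exon 1. The transcript was the MANE Select one where possible, then the canonical one, then others. The median distance of the site midpoint from the transcript start was 103 bases (order-statistic interval 70.0–144), and the median gap to the start codon was 150 bases. In 5 equal parts of the 5′ UTR, from the start to the AUG, the sites numbered 28, 24, 16, 20 and 14, and the intervals of these shares overlap. Midpoints in the first 100 bases made up 49.0% (39.5–58.6%) of sites. If each site were spread evenly over its own 5′ UTR the mean would be 41.7%, which lies inside that interval.

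Only part of these sites lay in the 5′ UTR of the main transcript. For 53 of the 102 the 5′ UTR was that of the MANE Select or canonical transcript. For the other 49 it was that of an alternative transcript, and in the main transcript 29 lay in intron 1, 5 in a later intron and 15 upstream of the start. The label "5′ UTR" therefore rests on annotated transcripts other than the main one for 49 sites. The list does not say which transcripts were present in the cells. Sites in main transcripts had a median distance of 65.0 bases from the start (51.0–121), and sites in other transcripts 144 (91.0–206). The median 5′ UTR was 232 bases long in main transcripts and 363 in the others.

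Ribosomal protein genes held several of the sites with the most regular ends. Of 72 annotated ribosomal protein genes considered, 5 (6.94%) held a 5′ UTR peak, namely RPS18, RPS19, RPL19, RPLP0 and RPL23A. Over all 16240 protein-coding genes with an annotated 5′ UTR on these chromosomes, 120 did, a share of 0.739%. In RPL23A the peak was that of SNORD42B, and in the other 4 genes the sites lay on the gene strand in the MANE Select 5′ UTR. These counts describe 1 list, chosen with earlier results of these data known. Ribosomal protein messages are among the most abundant in growing cells, and the RNA level of each gene in the input was not analysed here.

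The exon 1 sites of these 4 genes all began with or within 3 bases of a run of at least 6 pyrimidines. The runs in the sites were 7 bases in RPS18, 11 in RPS19, 12 in RPL19 and 6 in RPLP0. In RPS19 the run is the annotated start of the mRNA, as the TOP sequence above shows, and in RPS18 and RPLP0 the site begins at base 3 and base 4 of the transcript. In RPL19 the annotated start lies upstream, and the run begins at base 33 of the transcript. Of the other 96 gene-strand sites considered, 3 began in this way. This feature was noticed after the sequences were read. Over all 102 gene-strand sites, 9.80% (5.41–17.1%) held a run of 7 or more pyrimidines anywhere, against 10.1% of all 17-base windows in main 5′ UTRs.

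The same sites ended at the exon boundary. In RPS18, RPS19, RPL19, RPLP0 and in SERF2, which encodes a small basic protein, the site reached the last base of exon 1 to within 1 base, and a further peak began within 1 base of the first base of exon 2. By the listed coordinates, the site ran 1 base into the intron in RPS18, RPS19, RPL19 and SERF2, and in RPLP0 the exon 2 peak began 1 base before the exon. In each of these genes the extra base was at the higher genomic coordinate of the peak. Whether it comes from how the list writes its ends was not tested. In RPS19 the exon 1 site had p of 1.81e-69 and the exon 2 peak 8.22e-70, across an intron of 485 bases. In RPS18 the values were 1.41e-09 and 1.30e-09 across 505 bases, and in RPLP0 7.69e-11 and 2.45e-10 across 251 bases. In SERF2 they were 0.00374 and 0.00370 across 591 bases, and in RPL19 0.0207 and 0.0198 across 863 bases. Both members of each pair thus had nearly the same p, and apart from that intron base the pair leaves no gap in the spliced mRNA.

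Among the gene-strand sites, 11 (10.8%, 6.13–18.3%) touched an exon boundary of an annotated transcript, as did 14.6% (11.2–18.8%) of 329 CDS sites outside POLQ and SUMO3. Of 150 3′ UTR sites, 1 did (0.667%, 0.118–3.68%). A peak across the intron was found for 7 of the 102 gene-strand sites (6.86%, 3.36–13.5%). The number of exon boundaries in each region was not measured, so the regions may differ in the chance to show this. Other pairs came close without meeting the 1-base limit. In STARD6, a lipid transfer gene, sites in exons 1 and 2 of the MANE Select 5′ UTR had p of 1.92e-36 and 1.81e-36. In GUCY1A1, a guanylate cyclase subunit, sites in exon 1 of one transcript and exon 2 of another had p of 8.87e-183 and 1.91e-182.

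For 3 of these 4 ribosomal protein genes the sequence is not unique. The central 20 bases of the sites occur 3 times in the genome for RPS18 and the exon 2 site of RPLP0, and 2 times for RPL19. Over all sites, 123 of 131 (93.9%) had a sequence found once. How reads with several matches were assigned is not given in the sources used here.

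Sites at the start codon were mostly those of the same genes. A site overlapped the start codon in 3 genes (RPS18, RPL19 and SERF2), and 8 gene-strand sites overlapped it or the 10 bases before it. The others were RPS19, RPLP0, the RAS effector RASSF5 with a p of 1.93e-19, THEGL with 1.03e-05 and SRA1 with 1.02e-71. SRA1 has a 5′ UTR of only 21 bases, of which its site covers bases 7 to 19. The SRA1 site and the exon 2 site of RPLP0 each touch a peak placed in the CDS, which the rule leaves out. Overlap with the start codon is thus counted for the 5′ UTR peaks alone.

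At the other end, 9 gene-strand sites overlapped the first 10 bases of a transcript. Besides RPS18, RPS19, RPLP0 and SRA1 they were MRPS12, a mitochondrial ribosomal protein, MAP3K14, a kinase of the non-canonical NF-κB pathway, CRISP1, ZNF18 and EEF1A1. Their lowest p-values were 2.33e-108 in MRPS12, 5.95e-35 in MAP3K14, 1.20e-58 in CRISP1, 5.44e-32 in ZNF18 and 3.23e-43 in EEF1A1. In 4 gene-strand sites, those of CRISP1, EEF1A1, ZNF18 and MRPS12, the site began before the annotated start of its transcript. The EEF1A1 site, printed above, covered 10 bases before the start and 13 after it.

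EEF1A1, the elongation factor that delivers aminoacyl-tRNA to the ribosome, held the most peaks, 15 in 6 sites. One of these was the start site, 4 lay in intron 1 of the MANE Select transcript, and 1 lay upstream, each within the 5′ UTR of another EEF1A1 transcript, with p between 1.02e-38 and 2.17e-116. The vector that carries V5-RRN3 uses an EF1α promoter, which is taken from this gene, and reads from the vector and from the gene cannot be told apart in the list.

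Upstream open reading frames were touched about as often as their extent allows. Of the 102 gene-strand sites, 32 (31.4%, 23.2–40.9%) overlapped a frame that begins at an AUG upstream of the main one. When a window of the site's length was moved over every position of the same 5′ UTR, it touched such a frame in 34.2% of positions on average. In main transcripts the share was 15.1% (7.85–27.1%) against 20.4% of windows, and in other transcripts 49.0% (35.6–62.5%) against 49.2%. An upstream AUG itself lay inside 4 sites (3.92%, 1.54–9.65%), those of TGFBR3, TTC27, TP53I11 and SHANK2.

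The other gene groups held between 0 and 6 members each, to be read against the 0.739% of all genes. Among 66 translation factor genes EEF1A1 alone had a 5′ UTR peak (1.52%). Of 41 genes of autophagy and the lysosome, LAMP1 and MAP1LC3B had one (4.88%). LAMP1 encodes an abundant membrane protein of the lysosome, and its 2 touching peaks at chr13:113297291-113297306, with p of 6.52e-49 and 9.17e-49, lay 60 bases into the 196-base MANE Select 5′ UTR. The MAP1LC3B peak was the transfer RNA site on the other strand. Of 111 ubiquitin genes, UBE2D3 and USP29 did (1.80%). The UBE2D3 site was the longest of all at 102 bases and had a p of only 0.0192.

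Of 432 zinc finger (ZNF) genes, 6 held a 5′ UTR peak (1.39%). In ZNF514 and ZNF787 the site lay in intron 1 of the main transcript, as did that of ZNF18. The peaks of ZNF142, ZNF480 and ZNF780A were on the other strand, and that of ZNF142 touched a peak on the strand of the neighbouring BCS1L, a mitochondrial chaperone. Of 50 MAPK and CDK kinase genes, MAP3K14 had one (2.00%). No 5′ UTR peak was found for the 17 cleavage and polyadenylation genes, the 14 RNA polymerase I genes, the 81 splicing factor genes or the 17 stress-response genes known for upstream frames, ATF4 among them. At 0.739%, lists of this size would hold fewer than 1 such gene each.

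The 4 gene-strand sites with p listed as 0 are shown with CpG in capitals because they are the strongest of the class.
FAM149A: CGggCGgCGggCGtctggg
SLC11A2: CGgaggtCG
CAPS: CGgtcagaa
SIRPG: gtggaggta
FAM149A at chr4:186104757-186104775 lay in its canonical 5′ UTR, 63 bases from the start. SLC11A2, an iron transporter, at chr12:51026065-51026073 and SIRPG, a T-cell surface protein, at chr20:1651228-1651236 lay in intron 1 of their main transcripts. The CAPS site at chr19:5913852-5913860 lay upstream of its main transcript. Of the 4 sites, 3 were thus outside the main 5′ UTR.

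Other genes with at least 3 peaks on the gene strand were SEC14L1 with 4, SETD4 with 3 and CHST15 with 3. The 2 sites of SEC14L1 had p of 1.41e-39 and 1.57e-23, those of SETD4 had 3.41e-79 and 1.26e-08, and the single site of CHST15 had 6.74e-149. CHST15 is a chondroitin sulfotransferase, and its site lay in intron 1 of the main transcript. The sites of SETD4, a lysine methyltransferase, lay in intron 1 and upstream of the main start, and those of SEC14L1 lay in intron 3 and upstream. For 84 of the 120 genes, the list had no peak on the gene's strand other than those in the 5′ UTR. Of the other 36 genes, 13 had a peak in the CDS and 23 in an intron. TTC27 is counted in both, KCTD20 had its other peak in neither, and none of the 36 had one in the 3′ UTR. The share of 36 in 120 has an interval of 22.5–38.7%, and 15.7% of all 16240 genes had a peak on their strand outside the 5′ UTR. For CDS peaks the shares were 10.8% (6.44–17.7%) and 1.86%, for intron peaks 19.2% (13.1–27.1%) and 12.4%, and for 3′ UTR peaks 0 (up to 3.10%) and 0.917%. Gene length and RNA level, which could differ between these sets of genes, were not matched.

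All opposite-strand sites lay in an annotated gene on their own strand. Of the 13, 9 lay in a long non-coding RNA gene on their own strand, among them TRAF3IP2-AS1, INTS6-AS1, PDE6B-AS1 and PTOV1-AS1. The lowest p was that of the site opposite TRAF3IP2, at chr6:111567354-111567365 (p of 3.20e-207). The other 4 lay in a protein-coding gene on their own strand, namely AASDHPPT opposite KBTBD3, FAM81A opposite MYO1E, DNASE1 opposite TRAP1 and LIG3 opposite CCT6B.

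The base composition of the sites was close to that of 5′ UTRs in general, and CpG was most frequent in a narrow central stretch. G and C made up 66.8% of gene-strand sites, 64.6% of the 20 bases on each side, and 62.7% of all main 5′ UTRs. Uridine, the base that 4-thiouridine replaces, made up 19.2% of the sites and 19.1% of the flanks, and 94 of 102 sites held at least 1. CpG observed over expected was 1.03 (0.907–1.17, counting interval over dinucleotides) in gene-strand sites, 0.864 (0.781–0.955) in the flanks and 0.770 in all main 5′ UTRs. In CDS sites the pair was 0.926 and 0.597, in 3′ UTR sites 0.871 and 0.421 and in intron sites 0.802 and 0.304. Both the sites and the flanks thus fell in the same order of regions, from 5′ UTR to intron, and the flanks by more. Within the 5′ UTR, the pair was 1.03 (0.870–1.21) in sites and 0.951 (0.836–1.08) in flanks for main transcripts, where the intervals overlap widely. For the sites in other transcripts it was 1.04 (0.845–1.27) and 0.758 (0.646–0.889).

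**Figure D2:**
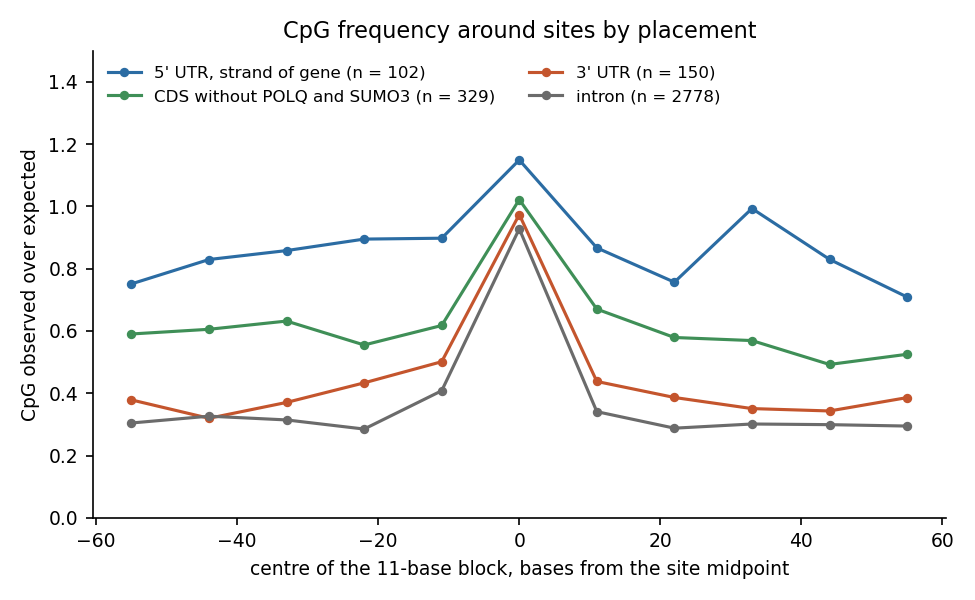
Each line gives CpG observed over expected in blocks of 11 bases around the site midpoint, by placement, for n sites each. The central block reaches 1.15 in 5′ UTR sites, 1.02 in CDS, 0.974 in 3′ UTRs and 0.928 in introns, while the outer blocks of the 5′ UTR line stay between 0.709 and 0.993.

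RNase A cuts after C and U, so a cut bears on the last base of a site and on the base before its first. The last base was C or U in 43.1% (33.9–52.8%) of gene-strand sites, and C and U made up 49.8% of all their bases. The base before the site was C or U in 59.8% (50.1–68.8%), against 49.7% of the 20 bases on each side. The first value has the share over all bases inside its interval, the second just below it, and both depend on where the starts of the list are counted from. Searched on both strands, AGAAAAA (a PABPC1 motif), AAAAAAA (PABPC4) and TTTTTTT (HuR) were found in 0 of 131 sites, a count that allows a share of up to 2.85% by the Wilson interval. TTTTTTT is the reverse complement of AAAAAAA, so those 2 searches are the same. In windows of the sites' lengths over all main 5′ UTRs, AGAAAAA occurred in 0.447% and AAAAAAA or its complement in 0.508%. GCGCGGG (RBM4) was found in 5 sites (3.82%, 1.64–8.62%), against 1.71% of such windows. In the sense of the RNA it was found in 3 sites (2.29%, 0.782–6.52%) against 0.850% of windows, and both window shares lie inside the intervals.

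The fold enrichment listed by the authors did not follow the p-value. It ran from 2.00 to 3.99 with a median of 3.05 over the 224 peaks, and its Spearman correlation with −log10 p was −0.00341 across the 209 peaks with p above 0, which share libraries and are no replicates. In 58 sites made of 2 touching peaks with both p above 0, the median difference in −log10 p was 0.0900. Over all 61 sites made of 2 peaks, the median difference in fold was 0.494. In LAMP1 the folds were 3.69 and 3.86, and in RPS19 3.51 and 2.11. Fold enrichment was therefore not used to order sites.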

How the data were processed

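Per the labels, libraries were made by random-primed reverse transcription with adapters carrying molecular identifiers, and the submitters' processing notes name GRCh38. The aligner, peak caller and its thresholds are not given in the sources used here. The deposited fold enrichment is a ratio, and the deposited p-value, false discovery rate and score are the authors' own per peak. The peak length is deposited in bases. Starts in the list were read as counting from 0, since length equals end minus start and site ends then meet those of mature microRNAs; the counting base is not stated. Positions here count from 1. Depth per peak is unknown.

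Peaks were placed with GENCODE release 44, and touching peaks joined. Named sites were the 10 with the lowest p, genes with at least 3 peaks, members of fixed gene lists, sites at start codons or transcript starts, sites in small RNA genes, and LAMP1. Results for 2 genes are not reported here: their peaks stay in totals and shares over all sites, and were left out of the named groups. The members and lists were chosen with earlier results of these data known. Exon boundaries were matched to within 1 base. Intervals are Wilson intervals (95%). Functions were tested on simulated data. The work was done with pandas 2.3.3, scipy 1.17.1, numpy 2.4.6, pysam 0.24.0 and matplotlib 3.10.9 under Python 3.11.15.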

Additional observations from a re-analysis of the deposited data

How the results depend on the processing

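A count was taken as close to the reported one within 1.5 times, and any other value inside the reported value's 95% interval. Of 29 alternative values for 7 results, 21 were close by this rule and 8 moved. The count of 224 peaks became 100 with main transcripts only, 131 after joining touching peaks and 107 in the stronger 3896 peaks of the list, and lay between 177 and 253 under the other settings. The 120 genes became 62 with main transcripts and 50 in the stronger 3896 peaks. Peaks per Mb of 5′ UTR over peaks per Mb of CDS was 1.24 (1.07–1.45), and 1.65 (1.41–1.93) without POLQ and SUMO3. With touching peaks joined into sites the ratio was 1.33, with a wider interval of 1.10–1.63. For sites in main transcripts, chosen after seeing the data, the median distance from the start was 65.0 bases and the share touching an upstream open reading frame 15.1%. With the transcript whose start is nearest, the median distance was 74.5 bases, within the interval of 70.0–144. Other choices of transcript gave 179 peaks (basic transcripts), a density ratio of 1.31 (main transcripts) and 91.2% of sites in a first exon (any transcript). The settings on strand and small RNA genes were not run for distance, first exon or upstream frames. No paired analysis was possible because both libraries share 1 list of peaks, and no library could be left out for the same reason. The depth at each peak is unknown, so none of these settings could vary it.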
